A study of Mus musculus with 2 samples.

Results

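The Polycomb and trithorax group genes described here are 46 mouse genes that encode the subunits of Polycomb repressive complexes 1 and 2 (PRC1 and PRC2), a histone H2A deubiquitinase, the H3K4 methyltransferase (COMPASS) complexes and an H3K27 demethylase. They were chosen by symbol, and all 46 matched an Ensembl gene among the 43346 Ensembl genes of each deposited table. RNA sequencing of embryonic mouse hindbrain, the source of the cerebellum, pons and medulla, gave 2 libraries that form a single group. Per the labels, both came from B6NCrl embryos of embryonic day 13.5, males and females pooled and healthy, with no transgene or treatment named. Each started from 10 ng of total RNA over 200 nt prepared by the Ambion mirVana method, with synthetic ERCC RNAs added, and the protocols cite the manual of a SMARTer Ultra Low kit. The libraries are labelled biological replicates 1 and 2, with separate biosamples under the same donor label, so part of the spread between them may be technical. No condition was contrasted, and the comparisons are between paralogs, between transcripts of a gene and between the libraries.

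Polycomb complexes keep developmental genes silent by marking their chromatin. PRC2 methylates histone H3 at lysine 27 and PRC1 attaches ubiquitin to histone H2A at lysine 119, while trithorax group complexes of the COMPASS type methylate H3 at lysine 4 and keep genes active. In the embryonic hindbrain these opposing systems are known for holding the Hox gene clusters on or off by position along the body axis, and in neural progenitors for timing the change from neuron to glia production. Most subunits are encoded by families of paralogs, and the paralog present can decide which form of a complex is built.

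Replicate 1 held 32314690 estimated counts over Ensembl genes and replicate 2 held 37772696. All 5 hindbrain markers reported (Hoxa2, Hoxb2, Gbx2, Egr2, Meis1) reached a TPM (abundance corrected for transcript length and library size) of 1 or more in both libraries, against 0 of 5 forebrain markers (Emx1, Emx2, Dlx1, Dlx2, Six3), whose summed level was 3.08 and 2.91 TPM. Markers of neurons (5 of 5), neural progenitors (6 of 6) and cycling cells (4 of 4) were detected, as were 3 of 3 each for red blood cells, microglia, endothelium, choroid plexus and mesenchyme. The summed level of the choroid plexus markers was 555 TPM in replicate 1 and 1072 TPM in replicate 2, and that of the mesenchyme markers was 608 and 448 TPM. In bulk tissue, fewer cells of a type and less RNA per cell cannot be told apart.

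All 46 members had counts in both libraries, and 45 were detected, meaning a TPM of 1 or more in both. Over all protein-coding Ensembl genes, 62.2% met that rule. The exception was Phf19. The median level of the members was 20.6 TPM in replicate 1 and 20.5 TPM in replicate 2, beside a median of 19.3 TPM over the 13364 detected protein-coding genes, and 25 of the 46 lay above that median. The members held 0.342% and 0.344% of the counts of replicates 1 and 2. Their counts ran from 49 to 15274 in a library, and the next lowest after Phf19 was 182, so all but Phf19 rest on well over 100 reads a library. TPM divides by transcript length and allows levels to be compared between genes; the deposited interval of each TPM covers read assignment and counting error only, at a level not stated, and the reads carry no molecular identifiers to count molecules by. Intervals that do not overlap are called apart below.

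**Figure D1:**
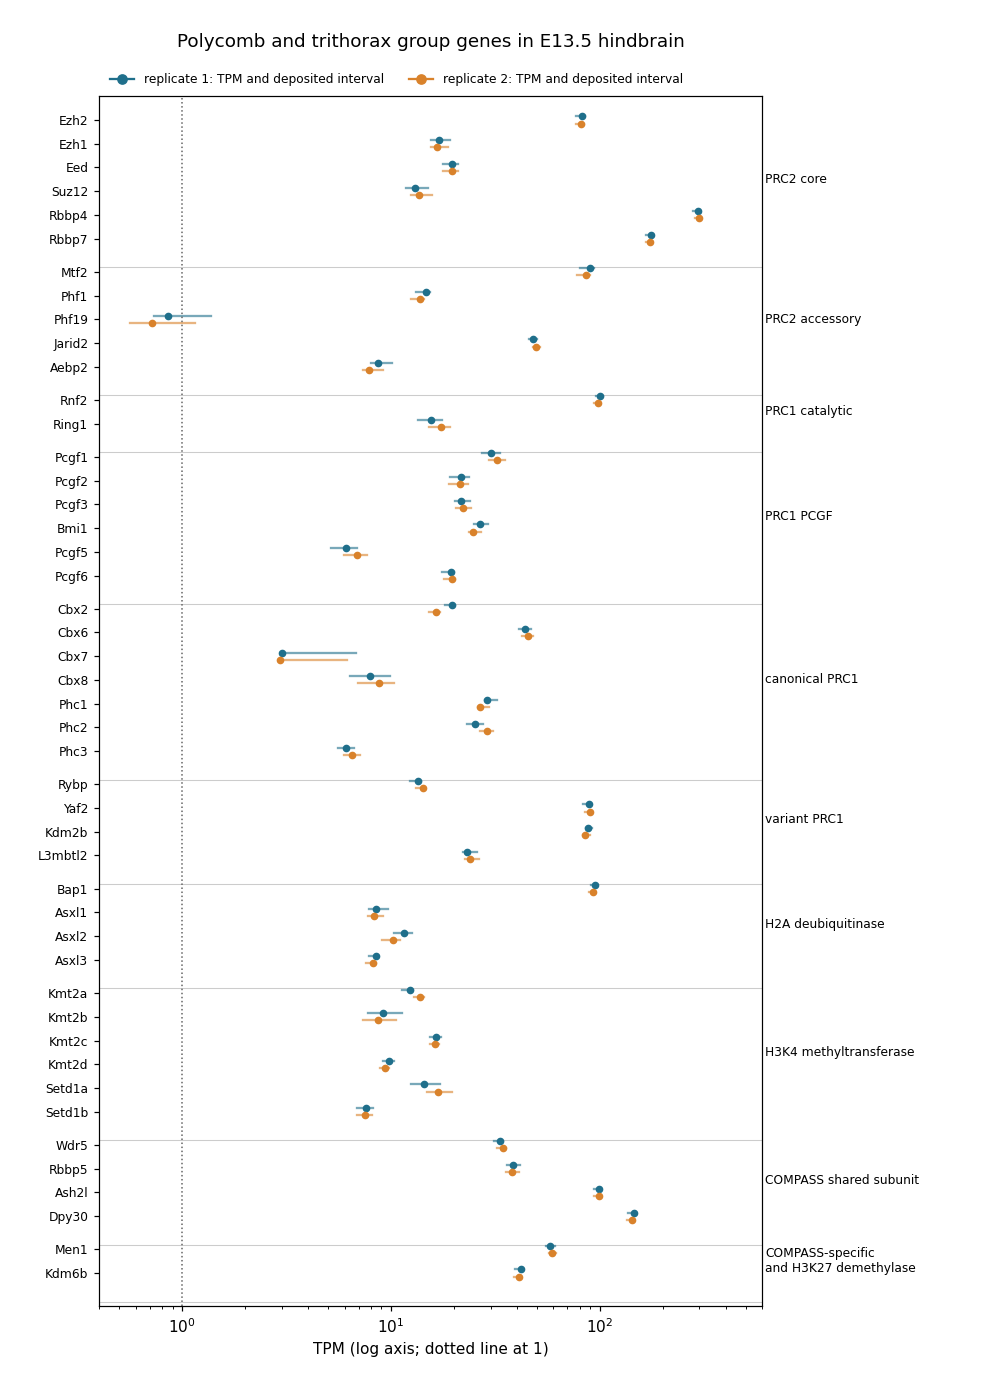
TPM of the 46 Polycomb and trithorax group genes in each library (points, log axis) with the deposited interval (lines), grouped by role. Rbbp4, at 296 TPM in replicate 1 and 300 TPM in replicate 2, stands highest and Phf19, at 0.86 and 0.72 TPM, lowest; within most genes the points of the libraries nearly coincide.

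Among the PRC2 core genes, the catalytic paralogs were far apart. Ezh2, the H3K27 methyltransferase of dividing cells, had 82.2 TPM in replicate 1 and 81.4 TPM in replicate 2 on 3337 and 3976 counts. Ezh1, the paralog that is usually the main one in resting and mature cells, had 16.9 and 16.6 TPM on 1072 and 1289 counts. The intervals of the genes were apart in both libraries, and the Ezh2 over Ezh1 ratio on the log2(TPM + 1) scale was 2.22 ± 0.01 (SD, n = 2), or 4.66-fold. Ezh2 made up 83.0% ± 0.08 (SD, n = 2) of the summed TPM of the pair. By CPM, counts scaled to the library but not divided by length, the log2 ratio was 1.60 ± 0.01 (SD, n = 2). The mean transcript length was 2083 nt for Ezh2 and 3221 nt for Ezh1. The leading transcript of Ezh2, Ezh2-201, carried 55.0% ± 1.04 (SD, n = 2) of the gene's TPM and holds the longest annotated coding sequence.

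The catalytic paralogs lie on different chromosomes (Ezh2 at chr6:47530139-47595341 and Ezh1 at chr11:101191115-101226463, both on the minus strand of GRCm38), and their mRNAs are distinct enough for reads to be assigned. The longest run of identical bases between their longest coding transcripts is 17 nt, in the coding sequence near its end. These windows show that run in capitals with up to 20 bases of each gene on either side, cut at the end of the coding sequence. They lie at chr6:47530544-47530599 for Ezh2 and chr11:101192942-101192997 for Ezh1 (GRCm38, minus strand, each within a single coding exon). The bases that differ can be seen beside those that are shared.
Ezh2: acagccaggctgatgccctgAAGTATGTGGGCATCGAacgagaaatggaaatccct
Ezh1: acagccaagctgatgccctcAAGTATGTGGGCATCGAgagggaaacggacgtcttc

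The promoters of Ezh2 and Ezh1 are also given, from the RefSeq table on GRCm38.p6. Each has 300 bases, of which 250 lie before the transcription start and 50 after it. Capitals mark the motif CG, which reads the same on both strands and is the dinucleotide that the CXXC domain of Kdm2b binds when unmethylated. Ezh2 at chr6:47594981-47595280 (minus strand) has 31 CG, a number reached by 10.6% of the 32851 promoters in the table. Ezh1 at chr11:101226414-101226713 (minus strand) has 23 CG, reached by 21.5%. Both are richer in CG than the median promoter, which has 7, and 94.6% of all promoters have at least 1.
Ezh2 promoter: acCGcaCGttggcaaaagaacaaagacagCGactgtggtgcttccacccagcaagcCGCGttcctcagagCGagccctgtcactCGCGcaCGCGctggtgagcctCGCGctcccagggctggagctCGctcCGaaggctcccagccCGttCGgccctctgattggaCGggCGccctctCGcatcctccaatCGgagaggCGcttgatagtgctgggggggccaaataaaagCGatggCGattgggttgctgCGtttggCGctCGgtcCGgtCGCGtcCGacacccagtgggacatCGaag
Ezh1 promoter: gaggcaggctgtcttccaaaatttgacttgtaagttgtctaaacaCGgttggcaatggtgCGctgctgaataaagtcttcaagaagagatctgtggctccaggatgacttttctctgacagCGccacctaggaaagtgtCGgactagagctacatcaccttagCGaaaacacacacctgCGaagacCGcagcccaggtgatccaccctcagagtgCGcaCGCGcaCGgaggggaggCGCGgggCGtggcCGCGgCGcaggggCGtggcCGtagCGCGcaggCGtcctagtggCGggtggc

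The non-catalytic core subunits differed widely in level. Eed, which binds trimethylated H3K27 and stimulates the enzyme, had 19.6 TPM in replicate 1 and 19.5 TPM in replicate 2. Suz12, the scaffold of the complex, had 13.0 and 13.7 TPM. Both were thus well below Ezh2 and near Ezh1. The transcript Eed-201 carried 96.6% ± 0.354 (SD, n = 2) of the Eed level. For Suz12 the libraries differed in which full-length transcript was credited: Suz12-206 carried 60.5% of the TPM in replicate 1 and 19.2% in replicate 2, and Suz12-201 carried 6.52% and 44.7%. These transcripts have coding lengths of 2154 and 2223 nt, and the gene total did not follow the exchange.

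Rbbp4 and Rbbp7, histone-binding WD40 proteins that PRC2 shares with deacetylase and chromatin assembly complexes, were the members of highest level. Rbbp4 had 296 TPM in replicate 1 and 300 TPM in replicate 2 on 12304 and 15274 counts. Rbbp7 had 176 and 174 TPM on 6918 and 8137 counts. Rbbp4 was higher with intervals apart in both libraries, by 0.76 ± 0.02 log2 units (SD, n = 2). That order depended on the transcripts counted. The leading Rbbp4 transcript, Rbbp4-203, is a processed transcript of 722 nt without a coding sequence and carried 60.8% ± 1.33 (SD, n = 2) of the TPM, and all 722 of its bases also lie in the coding transcript Rbbp4-201. With protein-coding transcripts only, the ratio of Rbbp4 over Rbbp7 was -0.64 ± 0.08 (SD, n = 2), the opposite direction. By CPM the ratio was 0.87 ± 0.05 (SD, n = 2), the same direction as by TPM of the whole genes.

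The longest identical run between the coding transcripts of Rbbp4 and Rbbp7 is 20 nt. It is shown in capitals with 20 bases on either side, from chr4:129322777-129322836 (minus strand) for Rbbp4 and chrX:162769797-162769856 (plus strand) for Rbbp7 on GRCm38, each within a single coding exon.
Rbbp4: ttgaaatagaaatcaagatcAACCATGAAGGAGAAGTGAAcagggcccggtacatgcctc
Rbbp7: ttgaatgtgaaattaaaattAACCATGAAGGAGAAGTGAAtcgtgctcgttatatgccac

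The PRC2 accessory genes ranged from 0.79 to 87.8 TPM as means of the libraries. Mtf2, Phf1 and Phf19 encode the Polycomb-like proteins, which bind unmethylated CG-rich DNA and define the PRC2.1 form. Mtf2 had 89.4 TPM in replicate 1 and 86.2 TPM in replicate 2, Phf1 had 14.7 and 13.7 TPM, and Phf19 had 0.86 and 0.72 TPM. Mtf2 carried 85.4% ± 0.298 of the summed TPM of the family, Phf1 13.8% ± 0.224 and Phf19 0.768% ± 0.074 (SD, n = 2). The Mtf2 over Phf1 ratio was 2.55 ± 0.02 log2 units (SD, n = 2), with intervals apart in both libraries.

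Phf19 rested on 60 counts in replicate 1 and 49 in replicate 2, and its intervals, 0.73 to 1.38 and 0.56 to 1.15 TPM, include the detection threshold of 1 TPM. Its leading transcript was Phf19-201, at 74.1% ± 13.2 (SD, n = 2). By TPM, the Mtf2 level was largely that of short transcripts. Mtf2-208, an incomplete coding model of 718 nt, carried 38.0% ± 3.88 of the TPM (SD, n = 2). Mtf2-201, the form with the longest coding sequence, carried 17.1% ± 1.34 (SD, n = 2). By estimated counts, Mtf2-208 held 465 of 3158 in replicate 1 and 458 of 3553 in replicate 2. Counting only transcripts that hold 90% or more of a gene's longest coding length, a measure chosen after the data were seen, Mtf2 over Phf1 was 0.08 ± 0.08 log2 units (SD, n = 2). Such transcripts held 1322 and 1348 of the Mtf2 counts in replicates 1 and 2. Phf1 also overlaps Cuta on the opposite strand, which had 1079 and 1396 counts, and Mtf2 overlaps Tmed5 with 1030 and 1146; the strand setting is not given in the sources used here, so their reads may be mixed.

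Jarid2 and Aebp2 define the other form, PRC2.2. Jarid2, which helps PRC2 bind chromatin that carries H2A ubiquitin, had 47.6 TPM in replicate 1 and 49.3 TPM in replicate 2. Aebp2, a zinc finger partner, had 8.65 and 7.85 TPM. By TPM, Jarid2 was thus between Mtf2 and Phf1, and Aebp2 was the lowest detected PRC2 gene among the 46 members. By CPM Jarid2 was above Mtf2, with 157 and 166 against 97.7 and 94.1 in replicates 1 and 2. It was also above Mtf2 over transcripts with 90% or more of the longest coding length (36.31 and 38.16 against 16.15 and 13.95 TPM). The leading Jarid2-208 carried 73.7% ± 0.191 and holds the longest coding sequence. The leading Aebp2-201 carried 56.3% ± 1.98 (SD, n = 2) and holds 54.4% of the longest coding length, a short form of the protein; another 25.4% ± 4.20 (SD, n = 2) belonged to a transcript not matched in the annotation used for names.

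The catalytic PRC1 paralogs showed the same kind of gap as Ezh2 and Ezh1. Rnf2 (RING1B), a ubiquitin ligase for H2A, had 100 TPM in replicate 1 and 97.7 TPM in replicate 2 on 5961 and 6993 counts. Ring1 (RING1A), its paralog, had 15.6 and 17.3 TPM on 559 and 752 counts. The intervals were apart in both libraries, and the Rnf2 over Ring1 ratio was 2.52 ± 0.12 log2 units (SD, n = 2), or 5.73-fold. Rnf2 carried 85.7% ± 1.11 (SD, n = 2) of the pair's TPM. The ratio was in the same direction and larger by CPM, at 3.25 ± 0.13 (SD, n = 2). Rnf2 overlaps Trmt1l on the opposite strand, which had 1938 and 2358 counts.

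The longest identical run between the coding transcripts of Rnf2 and Ring1 is only 14 nt. It is shown in capitals with 20 bases on either side, from chr1:151471649-151471702 for Rnf2 and chr17:34021694-34021747 for Ring1 (GRCm38, both minus strand and each within a single coding exon).
Rnf2: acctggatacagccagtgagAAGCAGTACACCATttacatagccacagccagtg
Ring1: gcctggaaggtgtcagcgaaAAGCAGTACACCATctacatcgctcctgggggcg

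The PCGF genes, whose proteins pair with RING1A or RING1B and set the type of PRC1, were more even. Pcgf1, of the PRC1.1 complex with Kdm2b, had 30.2 TPM in replicate 1 and 32.3 TPM in replicate 2. Bmi1 and Pcgf2, the subunits of canonical PRC1, had 26.6 and 24.8 TPM and 21.6 and 21.4 TPM. Pcgf3 had 21.6 and 22.2 TPM and Pcgf6, of the complex with L3mbtl2 and E2f6, had 19.3 and 19.5 TPM. Pcgf5, the close paralog of Pcgf3, was lowest at 6.06 and 6.88 TPM on 182 and 246 counts. Of the summed TPM, Pcgf1 held 24.8% ± 0.949, Bmi1 20.3% ± 1.2, Pcgf3 17.4% ± 0.13, Pcgf2 17.0% ± 0.259, Pcgf6 15.4% ± 0.025 and Pcgf5 5.13% ± 0.41 (SD, n = 2).

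Bmi1 was above Pcgf2 by 0.25 ± 0.06 log2 units (SD, n = 2), with intervals apart in both libraries, and this gap was 1.46 ± 0.01 (SD, n = 2) by CPM. Pcgf3 was above Pcgf5 by 1.62 ± 0.09 (SD, n = 2), again with intervals apart, and by 3.68 ± 0.15 (SD, n = 2) by CPM. Pcgf3 has the longest mean transcript of the family, 6480 nt against 828 nt for Pcgf1, and by CPM Pcgf3 led the family with 43.7%. The leading transcripts of Pcgf1 and Pcgf2 carried under 50% of the TPM on average: Pcgf1-201 had 53.2% in replicate 1 and 40.1% in replicate 2, where Pcgf1-202 with 42.4% led, and Pcgf2-202 averaged 42.4% ± 0.269 (SD, n = 2).

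In canonical PRC1, CBX proteins read methylated H3K27 and PHC proteins link complexes through their SAM domains. Of the 4 CBX genes analysed here, Cbx6 had 43.7 TPM in replicate 1 and 45.1 TPM in replicate 2, and Cbx2, which compacts chromatin, had 19.7 and 16.5 TPM. Cbx8 had 7.96 and 8.79 TPM and Cbx7, a CBX typical of stem cells, had 3.01 and 2.94 TPM. Cbx6 held 60.2% ± 1.94 of their summed TPM, Cbx2 24.5% ± 2.81, Cbx8 11.3% ± 0.903 and Cbx7 4.03% ± 0.028 (SD, n = 2). The order Cbx6, Cbx2, Cbx8 was the same in both libraries, with intervals apart between Cbx2 and Cbx8 (log2 ratio 1.02 ± 0.26) and between Cbx6 and Cbx8 (2.28 ± 0.06, SD, n = 2).

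The lowest step was not resolved: the Cbx7 over Cbx8 ratio was -1.24 ± 0.11 log2 units (SD, n = 2), but their intervals overlapped in replicate 1. The TPM of Cbx7 lay below its own intervals, 3.15 to 6.79 and 3.02 to 6.17 TPM, which surround a posterior mean, and by CPM the ratio was -0.41 ± 0.01 (SD, n = 2). Cbx7 overlaps Apobec3 on the opposite strand (158 and 206 counts), and its leading Cbx7-203 holds 62.9% of its longest coding length. Cbx8-201, the only coding form of Cbx8, carried 41.0% ± 3.42 (SD, n = 2) of that gene's TPM, and Cbx6-202 carried 49.8% ± 1.54 (SD, n = 2) of that of Cbx6. With protein-coding transcripts only, Cbx2 over Cbx8 was 2.06 ± 0.17 and Cbx6 over Cbx8 was 3.14 ± 0.07 (SD, n = 2).

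Phc1 and Phc2 could not be ordered. Phc1 had 28.9 TPM in replicate 1 and 26.7 TPM in replicate 2, and Phc2 had 25.1 and 28.7 TPM. Phc1 was higher in replicate 1, with intervals apart, and lower in replicate 2, with intervals that overlap, for a log2 ratio of 0.05 ± 0.21 (SD, n = 2). Phc3 was below both at 6.06 and 6.50 TPM, and its ratio to Phc2 was -1.94 ± 0.07 (SD, n = 2). By CPM that ratio was -0.80 ± 0.06, and over transcripts with 90% or more of the longest coding length -1.08 ± 0.10 (SD, n = 2). The leading transcripts carried 28.1% ± 10.4 (Phc1-201), 45.2% ± 3.59 (Phc2-202) and 39.6% ± 3.80 (Phc3-209, SD, n = 2). Phc2-202 holds 38.0% of the longest Phc2 coding length, and over transcripts with 90% or more of it, Phc1 over Phc2 was 1.63 ± 0.05 (SD, n = 2). In Phc1, the leading transcript was Phc1-201 in replicate 1 and Phc1-215 in replicate 2.

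Rybp and Yaf2 encode alternative subunits of variant PRC1, which take the place of CBX proteins and stimulate ubiquitin transfer. Rybp had 13.5 TPM in replicate 1 and 14.2 TPM in replicate 2, and Yaf2 had 88.7 and 89.7 TPM. Rybp was lower with intervals apart in both libraries, and the Rybp over Yaf2 ratio was -2.60 ± 0.03 log2 units (SD, n = 2), so that Yaf2 was 6.08-fold higher and carried 86.6% ± 0.306 (SD, n = 2) of the pair's TPM. The mean transcript length was 4458 nt for Rybp and 1718 nt for Yaf2, and by CPM the ratio was -1.24 ± 0.03 (SD, n = 2).

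The paralogs share an identical run of 23 nt in their coding sequences. It is shown in capitals with 20 bases on either side, from chr6:100232316-100232378 for Rybp and chr15:93285513-93285575 for Yaf2 (GRCm38, both minus strand and each within a single coding exon).
Rybp: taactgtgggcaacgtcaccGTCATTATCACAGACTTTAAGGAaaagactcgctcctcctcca
Yaf2: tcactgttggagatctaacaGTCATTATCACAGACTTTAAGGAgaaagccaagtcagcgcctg

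Kdm2b, the CG-binding subunit that brings PRC1.1 to unmethylated CpG islands, had 88.3 TPM in replicate 1 and 85.3 TPM in replicate 2 on 6393 and 7189 counts, a level close to those of Yaf2 and Ezh2. L3mbtl2, a chromatin-compacting subunit of PRC1.6, had 23.1 and 23.8 TPM. Nearly all of the Kdm2b level came from the shorter of its coding forms. Kdm2b-201, which starts at the proximal promoter and encodes the form known to keep the CG-binding CXXC domain without the demethylase (JmjC) domain, had 80.5 and 76.3 TPM. The 6 coding transcripts that start upstream together had 4.93 and 4.89 TPM. As shares, Kdm2b-201 carried 90.3% ± 1.2 of the gene's TPM and the upstream coding transcripts 5.66% ± 0.103 (SD, n = 2).

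The short form was therefore read from 5706 and 6392 estimated counts in replicates 1 and 2, and the upstream forms from 479 and 553. Kdm2b-201 has a coding length of 2328 nt, or 59.3% of the longest, and 207 of its 3532 exonic bases are not shared with the longest coding transcript, so its share rests on read assignment over largely common exons. Kdm2b spans chr5:122870665-122989823 on the minus strand of GRCm38, and the start of Kdm2b-201 lies 89.5 kb downstream of the furthest upstream start. The gene overlaps Rnf34 on the opposite strand, which had 2670 and 3037 counts.

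A promoter beside the proximal start and an upstream promoter are shown, from RefSeq on GRCm38.p6, with CG in capitals. The proximal one at chr5:122900301-122900600 (minus strand) has 49 CG in 300 bases, as many as 1.02% of all promoters reach, and its start lies beside that of Kdm2b-201. The upstream one at chr5:122989050-122989349 (minus strand) has 28 CG, reached by 14.2%. Another upstream promoter, at chr5:122988458-122988757, has 18 CG. The 6 upstream coding transcripts have no single start and begin between positions 122952506 and 122989823. Of the promoters shown, that of the form with the higher level was the richer in CG, and a link between CG and level was not tested.
Kdm2b proximal promoter: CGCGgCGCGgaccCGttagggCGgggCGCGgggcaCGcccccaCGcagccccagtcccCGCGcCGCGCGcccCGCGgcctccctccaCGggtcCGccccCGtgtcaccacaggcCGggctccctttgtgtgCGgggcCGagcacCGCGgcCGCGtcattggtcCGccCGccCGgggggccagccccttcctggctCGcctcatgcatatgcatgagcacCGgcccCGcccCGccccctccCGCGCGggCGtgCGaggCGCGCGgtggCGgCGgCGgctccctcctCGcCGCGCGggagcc
Kdm2b upstream promoter: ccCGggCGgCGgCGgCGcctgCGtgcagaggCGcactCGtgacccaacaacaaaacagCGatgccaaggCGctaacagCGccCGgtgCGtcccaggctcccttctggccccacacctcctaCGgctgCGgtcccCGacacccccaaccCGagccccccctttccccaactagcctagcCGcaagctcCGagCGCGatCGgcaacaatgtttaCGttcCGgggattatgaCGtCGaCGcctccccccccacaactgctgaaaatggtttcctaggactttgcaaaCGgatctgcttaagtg

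Bap1, the deubiquitinase that removes ubiquitin from H2A, had 95.2 TPM in replicate 1 and 92.5 TPM in replicate 2 on 5919 and 6955 counts. Its ASXL partners, which activate the enzyme, were all far lower by TPM. Asxl1 had 8.48 and 8.27 TPM, Asxl2 had 11.6 and 10.2 TPM and Asxl3 had 8.47 and 8.21 TPM. Their summed level was 28.6 and 26.7 TPM. Asxl2 held 39.4% ± 1.73 of that sum, Asxl1 30.4% ± 0.931 and Asxl3 30.2% ± 0.797 (SD, n = 2). By CPM the ASXL genes summed to 122 in replicate 1 and 114 in replicate 2, against 183 and 184 for Bap1.

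The order among the ASXL genes was not settled. Asxl3 over Asxl1 was -0.01 ± 0.01 log2 units (SD, n = 2) with overlapping intervals in both libraries. Asxl1 over Asxl2 was -0.34 ± 0.10 (SD, n = 2), with intervals apart in replicate 1 only. By CPM Asxl3, whose mean transcript is longest at 9347 nt, led with 42.0% of the family, and over transcripts with 90% or more of the longest coding length Asxl1 led with 47.3%. The leading Asxl2-205 carried 32.9% ± 0.672 of the Asxl2 level and is an incomplete model with 29.5% of the longest coding length, and Asxl3-201 carried 44.9% ± 5.13 (SD, n = 2) of that of Asxl3. Asxl1 and Asxl2 overlap opposite-strand noncoding genes with 415 and 387 counts (2500004C02Rik) and 597 and 677 counts (1110002L01Rik).

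The H3K4 methyltransferases were low and close together, between 7.52 and 16.4 TPM as means. Kmt2a (MLL1) and Kmt2b, the Menin-bound enzymes that maintain Hox genes, had 12.3 TPM in replicate 1 and 13.9 TPM in replicate 2, and 9.16 and 8.65 TPM. Kmt2c and Kmt2d, the enzymes of enhancers, had 16.5 and 16.3 TPM, and 9.77 and 9.38 TPM. Setd1a and Setd1b, the main enzymes of promoter H3K4 trimethylation, had 14.3 and 16.7 TPM, and 7.56 and 7.48 TPM. The family summed to 69.6 and 72.4 TPM, less than Ezh2 alone, and no member held 25% of that sum. By CPM the family summed to 362 and 363, above the 103 and 105 of Ezh2, and Kmt2d held 32.4%.

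Within each pair the first was higher by TPM. Kmt2a over Kmt2b was 0.50 ± 0.17 log2 units, with intervals apart in replicate 2 only, Kmt2c over Kmt2d was 0.72 ± 0.02 and Setd1a over Setd1b was 0.95 ± 0.16 (SD, n = 2), both with intervals apart in both libraries. The last 2 orders turned with the measure. Kmt2d, with a mean transcript of 19188 nt, had 3810 and 4414 counts against 2717 and 3207 for Kmt2c, and by CPM Kmt2c over Kmt2d was -0.47 ± 0.02 and Setd1a over Setd1b -0.19 ± 0.01 (SD, n = 2). Over transcripts with 90% or more of the longest coding length, Kmt2c over Kmt2d was -1.04 ± 0.01 (SD, n = 2). With protein-coding transcripts only, Setd1a over Setd1b was 2.01 ± 0.19 (SD, n = 2). Over transcripts with 90% or more of the longest coding length it was 0.33 ± 0.02 (SD, n = 2). By CPM and by protein-coding transcripts Kmt2a over Kmt2b kept its direction, at 2.05 ± 0.19 and 1.40 ± 0.22 (SD, n = 2).

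Short or noncoding transcripts weighed on several of these genes. The leading Kmt2b-207 is a retained-intron transcript of 571 nt at 42.3% ± 4.79 of the TPM on 34.8 and 45.6 counts, and Setd1b-202 is another of 3365 nt at 48.8% ± 3.40 (SD, n = 2). Setd1a-203, an incomplete coding model of 730 nt with 11.5% of the longest coding length, carried 65.5% ± 2.93 of Setd1a, and Kmt2c-208, incomplete with 31.1%, carried 47.9% ± 4.29 of Kmt2c (SD, n = 2). By contrast, Kmt2d-201, the full-length form, carried 58.3% ± 5.06 of Kmt2d (SD, n = 2).

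The subunits common to all COMPASS complexes stood well above the enzymes by TPM. Dpy30 had 146 TPM in replicate 1 and 143 TPM in replicate 2, and Ash2l, which stimulates the catalytic SET domain, had 98.7 and 98.6 TPM. Rbbp5 had 38.6 and 38.2 TPM, and Wdr5, a WD40 scaffold that binds H3, had 33.1 and 34.3 TPM. The lowest of these, Wdr5, was above every one of the 6 enzymes by TPM in both libraries. Before division by length, Wdr5-201, with 94.8% of the gene's TPM, had 1817 and 2204 counts, against 3810 and 4414 for Kmt2d. The leading Rbbp5-203 is a retained-intron transcript at 36.3% ± 1.2 of the Rbbp5 level, and Ash2l-210, with 85.7% of the longest coding length, carried 54.1% ± 1.06 (SD, n = 2) of that of Ash2l. Men1 (Menin), the subunit of the Kmt2a and Kmt2b complexes, had 57.6 and 59.3 TPM, led by Men1-201 at 43.5% ± 1.26 (SD, n = 2). Kdm6b (JMJD3), which removes methyl groups from H3K27, had 41.8 and 41.1 TPM, near the level of Jarid2.

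**Figure D2:**
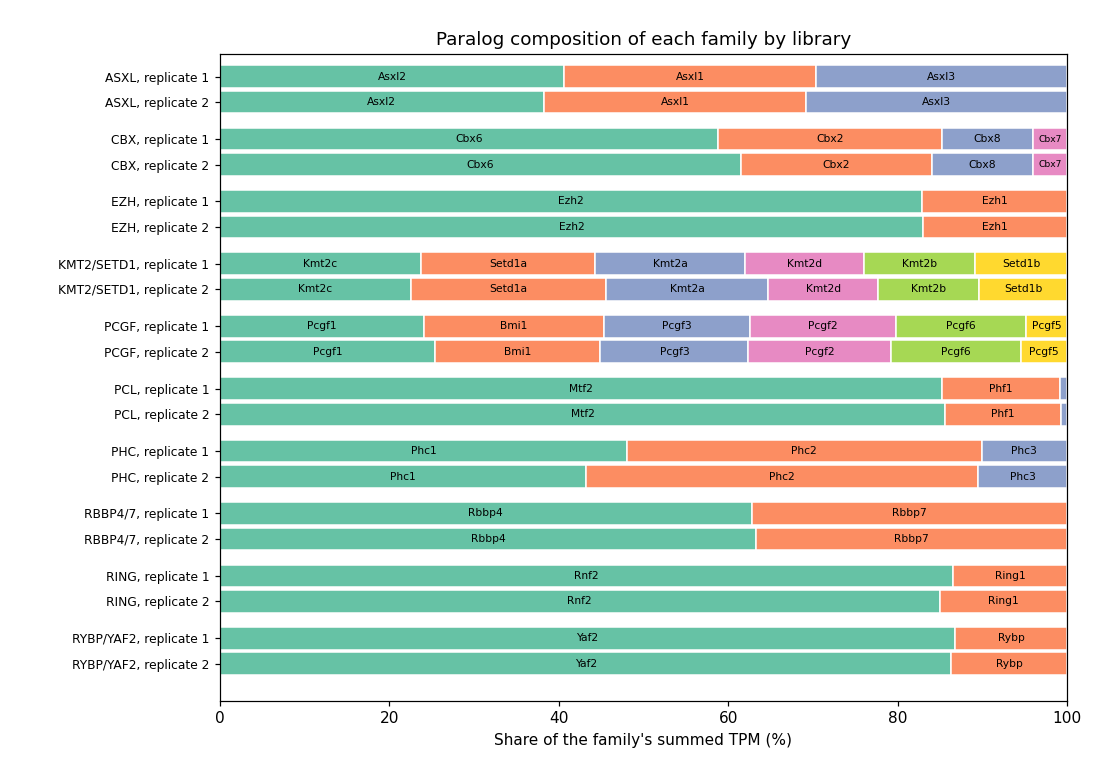
Share of each family's summed TPM (horizontal axis, percent) held by each paralog, with a bar for each library. Ezh2, Rnf2, Mtf2 and Yaf2 each fill over 80% of their bars, while the ASXL, PCGF, PHC and KMT2/SETD1 bars have no member above 50%.

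Across the 10 families, 6 had a member with 50% or more of the summed TPM in both libraries: Ezh2, Rnf2, Mtf2, Yaf2, Rbbp4 and Cbx6. The plot of family shares shows that the libraries gave nearly the same division, with the widest spread for Phc1 (48.1% and 43.2%) and Phc2 (41.9% and 46.3%), followed by Cbx2 (26.5% and 22.5%). Of the 18 paralog pairs compared, 13 had intervals apart in both libraries and 9 differed by 2-fold or more in both. The pairs that did not separate in both were Cbx7 and Cbx8, Phc1 and Phc2, Asxl1 and Asxl2, Asxl3 and Asxl1, and Kmt2a and Kmt2b. With 2 values a ratio, a permutation test cannot reach 0.05, and none was run.

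**Figure D3:**
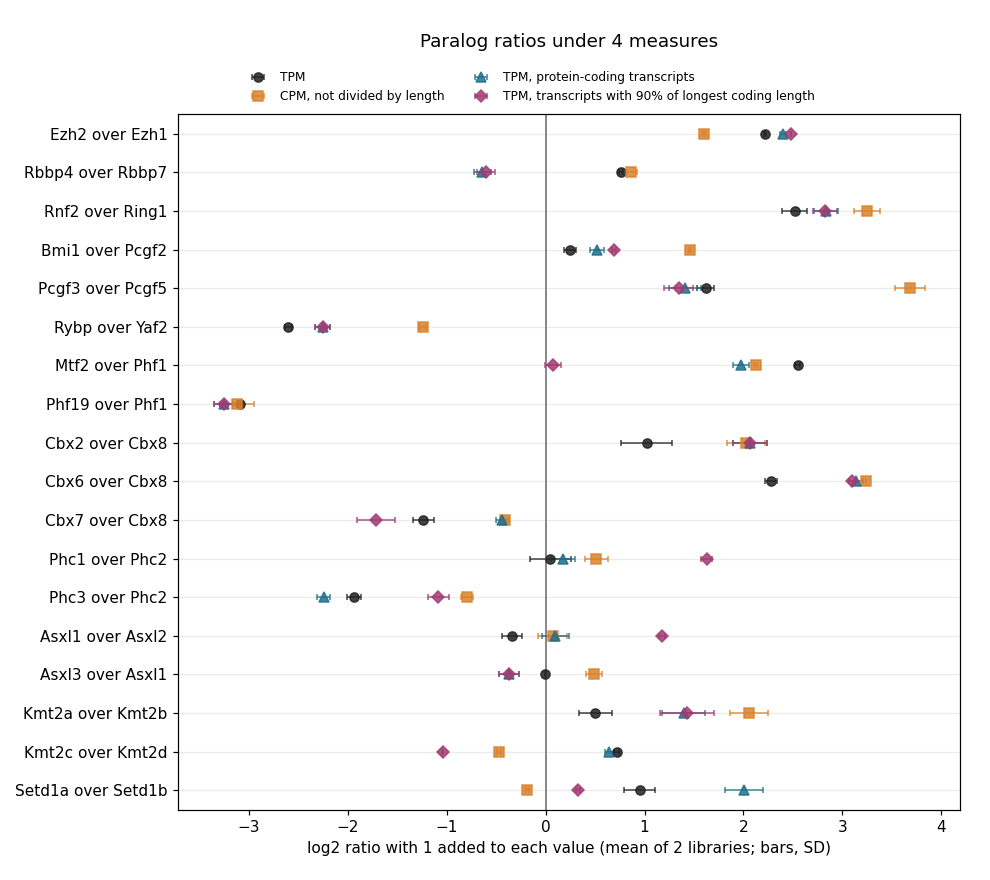
log2 ratio of the first paralog over the second (horizontal axis, 1 added to each value, mean of the libraries, bars SD) for 18 pairs under 4 measures. Ezh2 over Ezh1 and Rnf2 over Ring1 stay right of 0 and Rybp over Yaf2 stays left of it under all 4, whereas Rbbp4 over Rbbp7 and Kmt2c over Kmt2d lie on either side.

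The plot of paralog ratios sets TPM beside CPM and beside the TPM of coding transcripts. The EZH, RING, RYBP/YAF2, PCL, CBX and PHC families had the same leading member by mean share under each of these measures. By CPM the leading member was another in the ASXL, KMT2/SETD1 and PCGF families, and by protein-coding transcripts in the ASXL and RBBP4/7 families, where Rbbp7 held 61.0%. Over the 18 pairs, the longest identical run between coding transcripts was 12 to 23 nt, apart from 37 nt between Kmt2c and Kmt2d. For 29 members the estimated counts were whole numbers within 0.01 in both libraries, and for 17 they were not, as happens where reads are divided between genes.

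**Figure D4:**
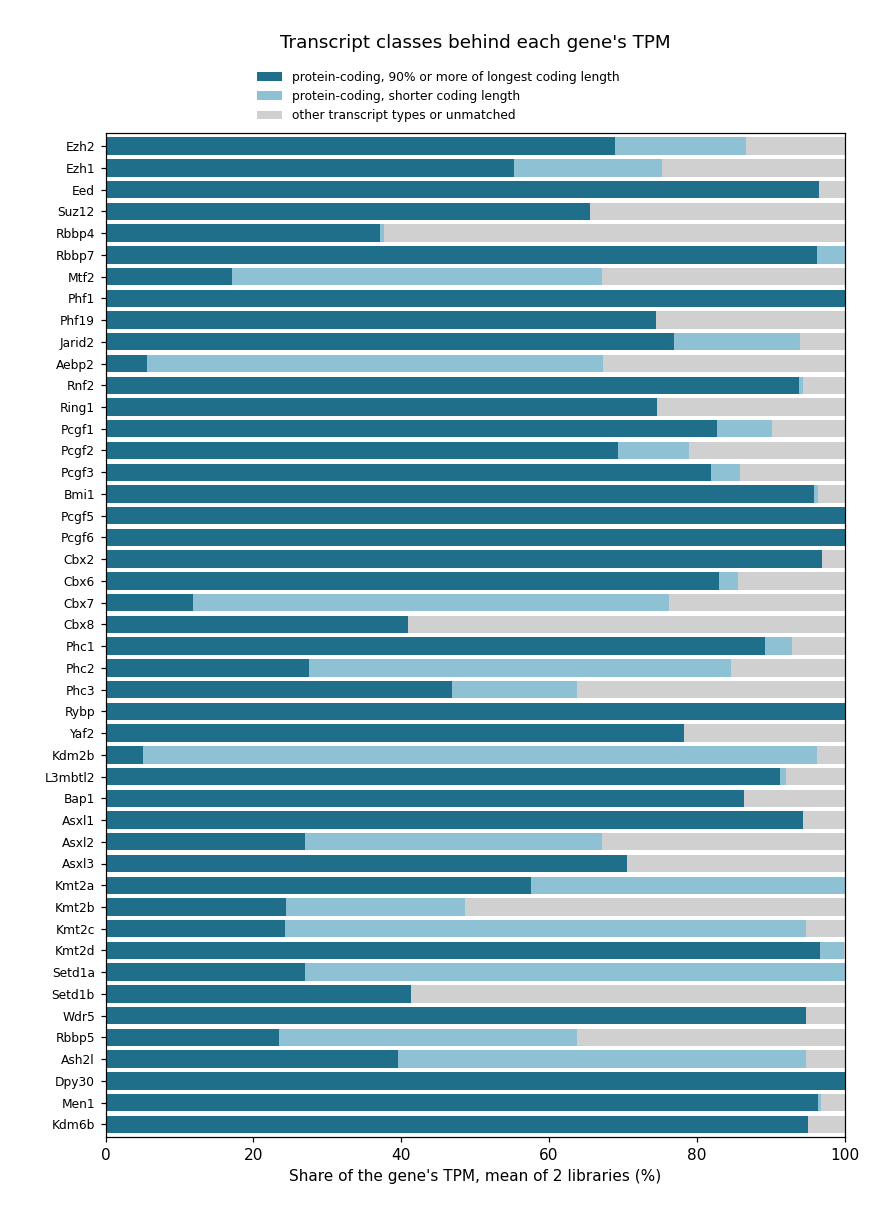
Share of each member's TPM (horizontal axis, mean of the libraries, percent) in protein-coding transcripts with 90% or more of the gene's longest coding length (dark), in shorter protein-coding transcripts (light) and in other or unmatched transcripts (grey). Rbbp4, Cbx8, Kmt2b and Setd1b are mostly grey. Those mostly light include Kdm2b, Setd1a, Kmt2c, Cbx7, Aebp2 and Phc2.

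Transcript tables assigned the members' TPM to 315 transcripts, of which 312 matched by identifier the annotation used for names and 290 had the same length there. Averaging each member's share over the libraries, protein-coding transcripts carried a median of 91.1% of its TPM, against 98.1% for all detected protein-coding genes. The median was 90.5% in replicate 1 alone and 90.7% in replicate 2 alone. Transcripts with 90% or more of the longest coding length carried a median of 75.7%, against 91.7%. As the plot of transcript classes shows, 24 members had over 90% of their TPM in coding transcripts. Another 4 had under 50% of it there: Rbbp4 (37.6%), Cbx8 (41.0%), Setd1b (41.3%) and Kmt2b (48.6%). These shares are of TPM, not of reads. In replicate 1, coding transcripts held 9439 of 12304 estimated counts for Rbbp4, 248 of 305 for Cbx8 and 710 of 760 for Kmt2b. The leading transcript was protein coding in 42 members, and in 33 it held 90% or more of the longest coding length. It carried under 50% of the TPM in 16 members and over 90% in 12. In 4 members the leading transcript was another in each library, namely Suz12, Phc1, Pcgf1 and Kmt2a, where Kmt2a-201 had 61.6% in replicate 1 and 42.6% in replicate 2 and Kmt2a-203 had 38.4% and 46.3%.

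In order of mean level the members began with Rbbp4, Rbbp7 and Dpy30, each apart from the next in both libraries. A group of 7 followed at 81.8 to 98.9 TPM, Rnf2, Ash2l, Bap1, Yaf2, Mtf2, Kdm2b and Ezh2, in which no neighbours were apart in both libraries. Ezh2 was apart from Men1, and Men1 from Jarid2. Of the 45 steps between neighbours, 29 had overlapping intervals in both libraries and 7 had intervals apart in both. The last of these 7 lay between Cbx7 and Phf19 at the low end. Ranks from Wdr5 to Cbx7 are therefore not resolved step by step, though genes far apart in the order were.

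Between the libraries, the members were called about as often as genes at large. An exact binomial test of rounded counts with Benjamini-Hochberg adjustment over 19687 genes, which compares 2 libraries against counting error and says nothing of conditions, called 5 of 46 members (10.9%), beside 12.6% of all genes tested. Cbx2 was higher in replicate 1, with 1478 counts against 1444 in the deeper replicate 2, by 0.25 log2 units after scaling (adjusted p = 6.73e-05, exact binomial test). Asxl2 was higher by 0.18 (adjusted p = 0.0231) and Kmt2b by 0.21 (adjusted p = 0.0459) in the same exact test. The call of Kmt2b ended without the count filter (adjusted p = 0.0588, exact binomial test). Rbbp4 was lower in replicate 1, with a log2 ratio of -0.09 (adjusted p = 5.17e-06), as was Jarid2 at -0.09 (adjusted p = 0.0168, exact binomial test).

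**Figure D5:**
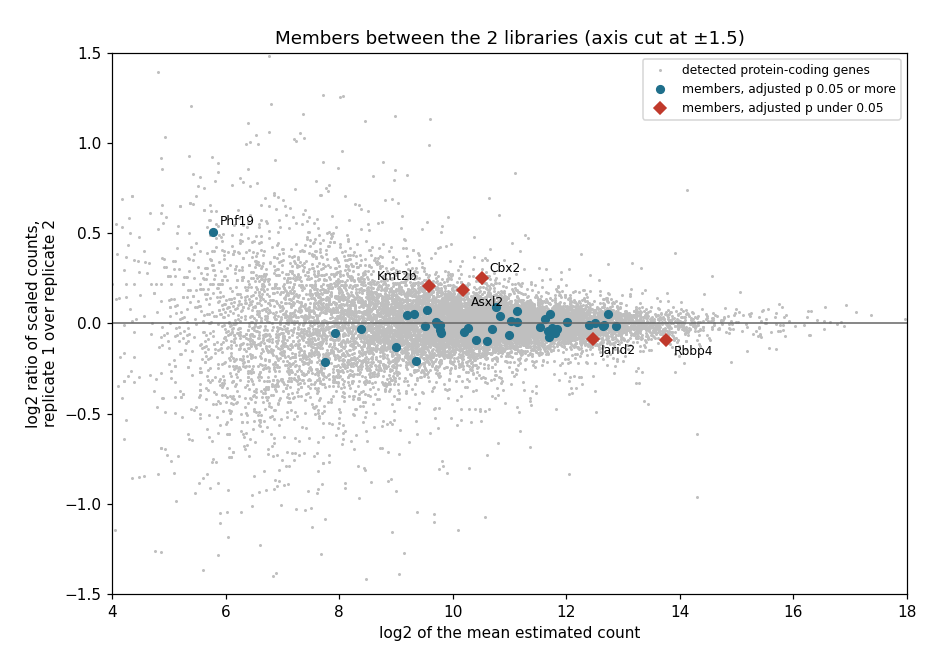
log2 ratio of scaled counts, replicate 1 over replicate 2 (vertical axis, cut at 1.5 in either direction), against the log2 mean count (horizontal axis) for detected protein-coding genes (grey) and the members (blue, or red where the adjusted p is under 0.05). The members lie close to 0, and Phf19, at the lowest count, is the furthest from it at 0.51.

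The deposited intervals of the libraries were apart for 2 members, Cbx2, higher in replicate 1 (19.7 TPM against 16.5 TPM in replicate 2), and Kmt2a, lower in replicate 1 (12.3 TPM against 13.9 TPM in replicate 2). Over the detected protein-coding genes 9.98% had intervals apart. By scaled counts 1 member, Phf19, reached a 1.2-fold difference, with a log2 ratio of 0.51 that was not called (adjusted p = 0.250, exact binomial test), and by TPM none did. The median size of the log2 ratio was 0.05 for the members and 0.08 for detected protein-coding genes, sets that were not matched for count. The part that the differing choroid plexus and mesenchyme levels play in these differences was not tested.

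The other subunits of the same complexes, taken from a list of 38 genes of which 37 matched, were all detected, with a median of 25.2 TPM. The highest were Skp1a, a ubiquitin ligase adaptor also found in PRC1.1, at 892 TPM in replicate 1 and 894 TPM in replicate 2, the deacetylase Hdac2 at 345 and 362 TPM, and Csnk2b, the regulatory subunit of casein kinase 2, at 262 and 265 TPM. The lowest was Epop, a PRC2.1 subunit, at 1.84 and 2.46 TPM on 84 and 133 counts. Ezhip, an inhibitor of PRC2, was not matched by symbol and was not analysed here.

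The promoter table held 53 promoters of 37 members. Their median was 24 CG in 300 bases, against 7 over all 32851 promoters, and 47 of the 53 lay above 7. They ran from 1 CG, in 1 of 4 Dpy30 promoters, to 56 CG in Kmt2c, a number reached by 0.195% of all promoters. Lying above the median promoter, as the Ezh2 and Kdm2b promoters shown above do, was thus common among the members. The 49 CG of the proximal Kdm2b promoter was not, and only promoters of Bap1 (50 CG) and Kmt2c had more. These counts describe sequence, not methylation, which was not measured.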

How the data were processed

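RNA-seq data of 2 libraries in 1 group were analysed from the deposited tables. The estimated counts were made by the authors from transcriptome alignments to mm10 with GENCODE M4, per the file headers and deposited notes. The deposited TPM values add up to a constant over every row, the spike-ins among them, as the authors computed them. FPKM and a posterior mean TPM were also deposited by the authors. The percent of a gene's TPM per transcript was likewise deposited by the authors. No aligner, counting program, version or strand setting is named, so each is not given in the sources used here. The level of the TPM intervals is not stated.

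Gene and transcript names, types and positions were looked up by unversioned identifier in GENCODE M21, whose build GRCm38 is that of mm10. Promoters came from RefSeq. Of the Ensembl genes, 884 did not match, with 0.202% of the counts of replicate 1.

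The members, pairs, families and lists were chosen with earlier results of these data known. Every member is named; of the other subunits, the 3 highest, the lowest and any not detected. Leading transcripts are named where they are noncoding or carry under 50%, and for 6 further genes, and others were named after their values were seen. Some tissue markers are not reported here.

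Ratios used log2(TPM + 1), which understates changes of low genes. Estimated counts were rounded, scaled by TMM (edgeR 4.0.16, R 4.3.3) and, for genes with 10 or more counts in the pair, compared by a two-sided exact binomial test (SciPy 1.17.1, Python 3.11.15) with Benjamini-Hochberg adjustment at 0.05. The quasi-likelihood test cannot be run on 1 group. Size factors from DESeq2 1.42.0 were an alternative. Tested on simulated data for replicate 1 over replicate 2 with 19687 genes, the test called 77 of 100 genes at 2-fold, 41 of 100 at 1.2-fold and 4 of 19487 unchanged genes. The simulated counts were Poisson draws, with no variation beyond counting error, and were scaled by library totals in place of TMM. The rate for unchanged genes therefore does not carry over to biological replicates.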

Additional observations from a re-analysis of the deposited data

How the results depend on the processing

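The median level of the members on the log2 scale was 4.43 with a pseudocount of 1, against 4.37 with 0.1, 4.41 with the posterior mean TPM and 3.79 with FPKM. The count of members that differed between the libraries was 5 by the exact test, 4 without the count filter, where the adjusted p of Kmt2b was 0.0588 against 0.0385 to 0.0433 under its other alternatives and 0.0459 as reported, and 2 by intervals apart. The median protein-coding share, 91.1%, was 96.1% by estimated counts, 93.5% with nonsense-mediated decay transcripts added, and 90.5% to 90.7% with a replicate left out. The number of members and other subunits detected, of pairs 2-fold apart and of families with a member at 50% or more stayed within 1.5 times the reported count. Pairs 2-fold apart ran from 8 with the posterior mean TPM to 13 with transcripts of 90% or more of the longest coding length, against 9. The families numbered 6 throughout, but not always with the same genes. Rbbp7 took the place of Rbbp4 by protein-coding transcripts. Under the 90% measure Mtf2 held 49.5% in replicate 2, and Phc1 held 70.3% and 71.0%.

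Some paralog ratios turned. With protein-coding transcripts only, Rbbp4 over Rbbp7 was -0.64 and Asxl1 over Asxl2 0.10. With transcripts of 90% or more of the longest coding length, a measure added after seeing the data, Rbbp4 over Rbbp7 was -0.60, Asxl1 over Asxl2 1.18 and Kmt2c over Kmt2d -1.04. By CPM, Asxl1 over Asxl2 was 0.071, Asxl3 over Asxl1 0.49, Kmt2c over Kmt2d -0.47 and Setd1a over Setd1b -0.19. Phc1 over Phc2 ran from -0.10 to 0.19 with a replicate left out. CPM values are not divided by length; for the transcript measures the cause was not tested. Of the 144 alternative values of single ratios, 69 stayed within the spread and 65 moved without turning. Of the 69, 17 had replicate 1 left out and 18 had replicate 2 left out. With n = 2 such values always lie within the SD, so they are no measure of stability.

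The test called 2472 genes as reported, 2465 with DESeq2 size factors, 2499 with library totals, 2257 without a count filter and 2421 with a filter of 50 counts. No paired analysis was possible because the libraries form 1 group. Depth limits Phf19 most, at 49 to 60 counts, and n = 2 limits every SD.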
